A study of Mus musculus with 21 samples.

Results

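Genes that are not among the usual zone markers of the germinal centre, but whose RNA differed strongly between its light zone (LZ) and its dark zone (DZ), were followed across every library of the study. They are Reln, Rgcc, Scn8a, Tifa, Mnd1, Selenop, Lgr5, Lifr, Serpinb1a and Lrrc32, 10 of the 47729 gene identifiers counted. All 10 were among the 15789 genes with enough counts to be tested. They were selected on their measured LZ against DZ levels in these libraries, so the zone difference is described below without a test. Loss of PTBP1, sex and PTBP1 binding were not the basis of that choice. The comparisons by genotype and by sex use the same libraries, however, and earlier results of these data were known when the genes were chosen.

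Germinal centres are structures in lymphoid organs in which activated B cells divide and mutate their antibody genes in the dark zone and compete for antigen and T cell help in the light zone. PTBP1 (polypyrimidine tract binding protein 1) is an RNA-binding protein that controls splicing and the fate of mRNA, and the series addresses its role in the selection of B cells. Conditional knockout mice (cKO, CD79acre/+Ptbp1fl/fl) had Cre recombinase placed in Cd79a, so that deletion takes place in the B lineage, and control mice (CD79a+/+Ptbp1fl/fl) carried the same loxP-flanked Ptbp1 alleles without Cre. Effects of the Cre allele and of PTBP1 loss therefore cannot be told apart. All mice were C57BL/6, and their age is not given in the labels. Those of the RNA libraries were immunised with NP-KLH in alum and gave spleen cells 7 days later. The cultured B cells in which PTBP1 binding was mapped, described further below, have no immunisation day in their labels. The 4 groups, LZ cKO, LZ control, DZ cKO and DZ control, held 4 libraries each. Each of the 8 pools joined 3 to 5 mice of 1 genotype and 1 sex and gave both an LZ and a DZ library, with males sorted on days 1 and 2 and females on days 3 and 4.

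The depth over all genes ran from 26823882 to 34240096 counts. Ptbp1 lay between 82.5 and 121 CPM, a level explained below, in the 8 cKO libraries and between 353 and 486 CPM in the 8 control libraries, in the direction the labels give. Of 12 markers of germinal centre B cells, 11 were found in every library, whereas Mef2b reached no more than 0.1252 CPM. Before sorting, cells stained for IgD, CD3e, Gr1 and Ter119 had been depleted with magnetic beads. RNA of the macrophage lineage was present: the summed level of 12 macrophage markers ran from 79.8 to 498 CPM in LZ cKO, from 27.4 to 402 in LZ control, from 53.6 to 1252 in DZ cKO and from 25.7 to 422 CPM in DZ control libraries. A level in CPM is a count brought to a common library size, with TMM, a normalization that sets the bulk of genes equal between libraries. They are not divided by transcript length, so levels are compared between libraries for each gene and not between genes.

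The 10 genes have little in common by name. Reln encodes reelin, a secreted glycoprotein that guides migrating neurons through the receptors VLDLR and LRP8, and Selenop encodes a secreted selenium carrier that is also taken up by LRP8. Scn8a encodes a voltage-gated sodium channel of neurons, Lgr5 a receptor for R-spondins that marks stem cells of the gut, and Lifr the receptor for leukaemia inhibitory factor, which signals together with gp130 (Il6st). Lrrc32 encodes GARP, which holds latent TGF-beta at the surface of regulatory T cells and platelets. Inside the cell, Rgcc encodes a regulator of the cell cycle that binds the kinase CDK1, Tifa an adaptor that recruits TRAF proteins to activate NF-kB, Mnd1 a partner of HOP2 (Psmc3ip) in DNA strand exchange during meiosis, and Serpinb1a an inhibitor of serine proteases of neutrophils.

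Upstream sequence could be shown for 7 of the 10 genes, which had 12 annotated start sites among them in RefSeq (GRCm38.p6). The windows of the 250 bases before a start are printed for 4 genes, because Rgcc and Selenop varied together between libraries once group means were removed, Selenop and Lifr had the light zone genotype differences described first below, and Reln had the widest zone difference. The Reln window is chr5:22344706-22344955 (minus strand), the Rgcc window chr14:79301636-79301885 (minus strand), the Selenop window chr15:3270517-3270766 (plus strand) and the Lifr window chr15:7140292-7140541 (plus strand). Each reads 5′ to 3′ towards the start, and capitals mark a match to a motif searched on both strands. Selenop had 3 annotated windows and Lifr 2, and the one printed for each was chosen because it held an E-box. The other Lifr window held no motif and was 82.4% G or C, and of the other Selenop windows, 40.4% and 47.6% G or C, 1 held the FOXO motif.
Reln: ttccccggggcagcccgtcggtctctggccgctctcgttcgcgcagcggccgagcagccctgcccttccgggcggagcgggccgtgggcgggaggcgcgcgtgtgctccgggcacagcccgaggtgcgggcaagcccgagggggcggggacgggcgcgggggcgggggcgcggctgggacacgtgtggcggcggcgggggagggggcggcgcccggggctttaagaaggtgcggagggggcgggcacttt
Rgcc: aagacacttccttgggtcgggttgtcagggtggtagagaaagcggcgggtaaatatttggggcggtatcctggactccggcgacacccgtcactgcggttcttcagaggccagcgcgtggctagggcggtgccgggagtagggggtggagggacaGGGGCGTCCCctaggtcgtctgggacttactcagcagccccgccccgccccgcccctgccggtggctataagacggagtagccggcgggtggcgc
Selenop: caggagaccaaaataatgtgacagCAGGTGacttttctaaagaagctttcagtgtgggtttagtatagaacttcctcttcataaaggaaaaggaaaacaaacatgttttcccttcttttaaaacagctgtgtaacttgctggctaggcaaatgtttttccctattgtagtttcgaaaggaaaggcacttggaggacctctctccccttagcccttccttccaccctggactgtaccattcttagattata
Lifr: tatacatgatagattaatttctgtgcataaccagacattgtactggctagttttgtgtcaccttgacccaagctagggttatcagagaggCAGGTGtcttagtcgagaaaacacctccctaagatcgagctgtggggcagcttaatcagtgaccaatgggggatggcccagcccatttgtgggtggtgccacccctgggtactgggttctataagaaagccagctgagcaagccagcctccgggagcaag
The capitals mark an NF-kB motif 95 bases before the Rgcc start, and the E-box CAGGTG 226 bases before the Selenop start and 160 bases before the Lifr start. Over all 12 windows of the 10 genes, the E-box was in 2, the FOXO motif TGTTTAC in 1, the NF-kB motif in 3, and the cell cycle motif TTTGAA and the octamer ATTTGCAT in 0. Among 32851 windows of the same length, the E-box was in 17.2%, the FOXO motif in 3.17%, the NF-kB motif in 7.25%, the cell cycle motif in 16% and the octamer in 1.60%. No 2 of these motifs overlapped in the printed windows. G or C made up 80% of the Reln window, 66.8% of the Rgcc window, 40.8% of the printed Selenop window and 50.8% of the printed Lifr window. A match is a run of letters and not a sign that a factor binds there.

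Most of the 10 genes were lower in the light zone than in the dark zone (7 genes, Reln, Rgcc, Scn8a, Tifa, Mnd1, Selenop and Lgr5), and 3 were higher there (Lifr, Serpinb1a and Lrrc32). In both genotypes the libraries of the zones did not overlap for any of the 10, and all 4 pools of each genotype showed the same direction. The fitted log2 ratio of light to dark zone lay between -2.76 and -1.91 in cKO and between -3.04 and -2.01 in control cells for the 7 dark zone genes. It lay between 2.16 and 2.40 in cKO and between 1.71 and 2.31 in control cells for the 3 light zone genes. The choice of the genes fixed these directions and favoured libraries that do not overlap between the zones. The share of all genes without such overlap was not computed, so nothing is read from this separation. In these bulk libraries, a difference in the share of cells that express a gene cannot be told apart from a difference in RNA per cell.

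**Figure D1:**
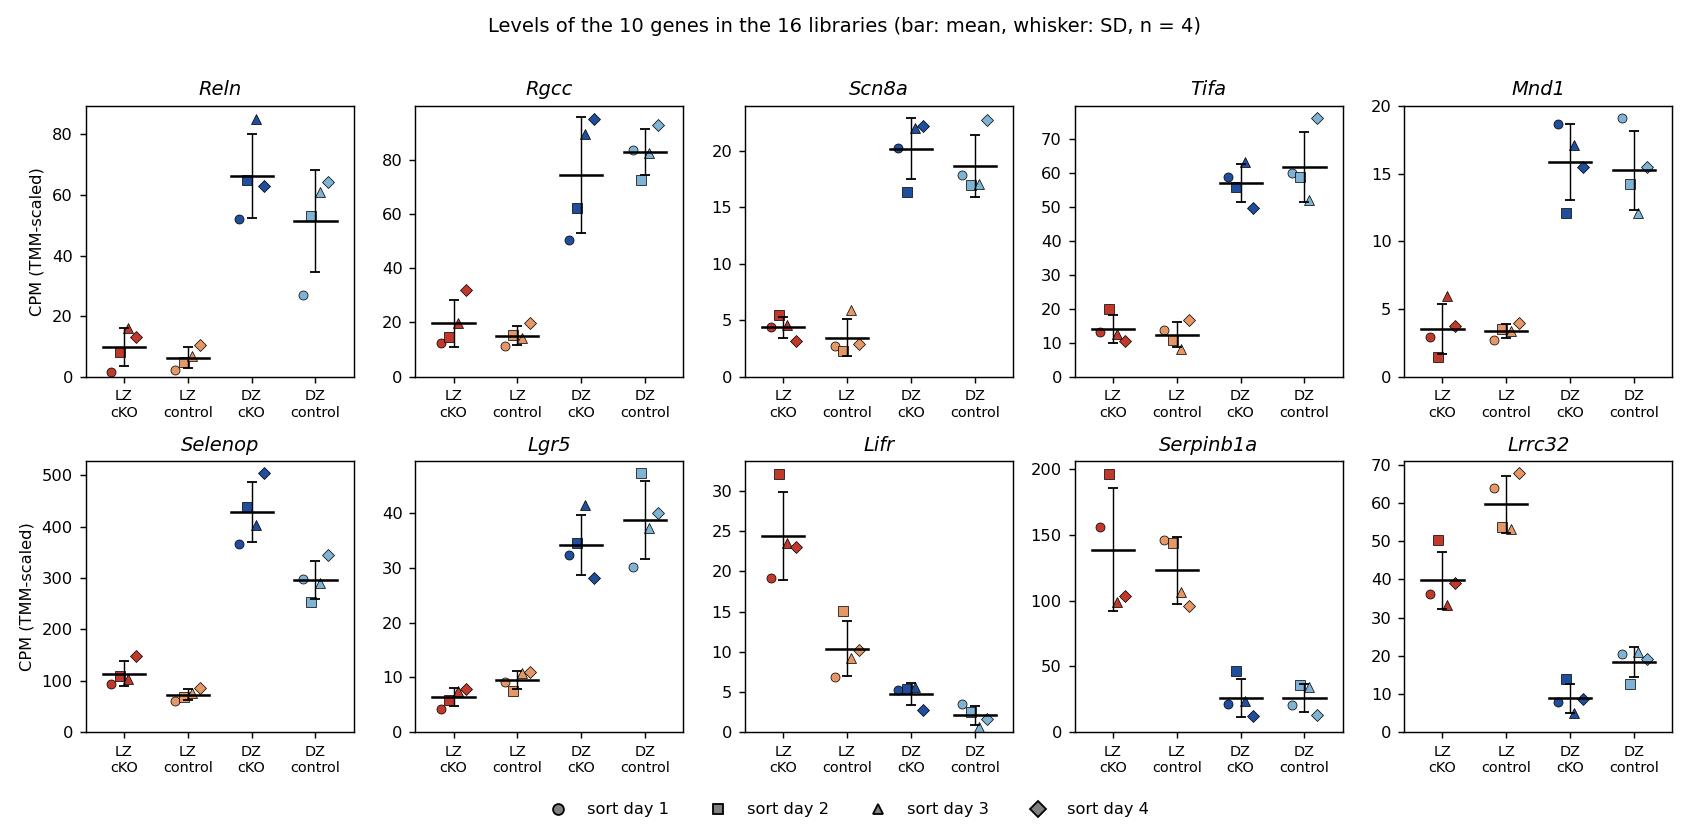
Levels of the 10 genes in CPM (linear axes) in the 4 libraries of each group, with the mean as a bar and the SD as a whisker; the marker shape gives the sort day. Dark zone libraries stand above light zone libraries in the first 7 panels and below them in the last 3, and the cKO points of Selenop lie above the control points in both zones.

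For scale, the classical light zone markers Cd83, Cd86, Bcl2a1b and Nfkbia had log2 ratios of light to dark zone of 2.15, 1.33, 1.32 and 1.03 in cKO and of 2.02, 1.17, 1.42 and 1.12 in control cells. The dark zone markers Cxcr4, Gcsam, Polh and Ccnb1 had -1.14, -1.58, -1.14 and -1.07 in cKO and -1.10, -1.75, -1.19 and -0.91 in control cells. Cd83 is a surface protein of activated B cells and Cxcr4 the chemokine receptor that holds B cells in the dark zone. Since the 10 genes were picked for large zone differences, nothing is read from how they rank beside these markers.

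**Figure D2:**
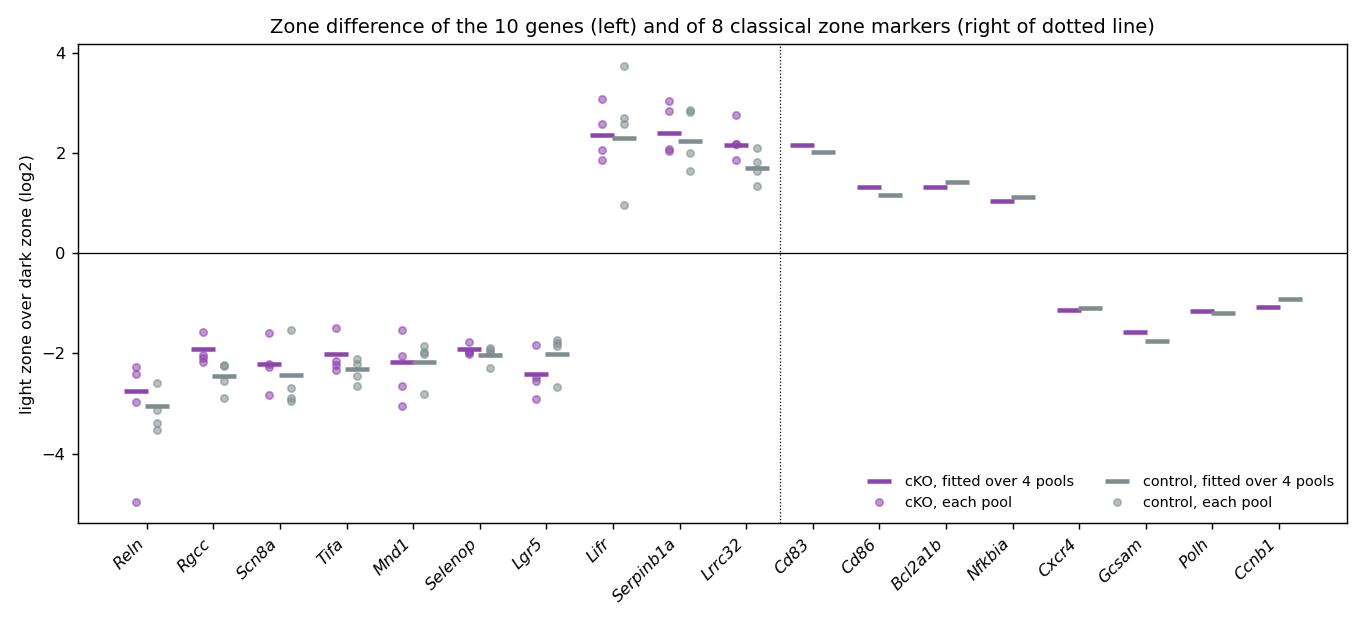
Log2 ratio of light to dark zone for the 10 genes and for 8 classical zone markers, in cKO (purple, left of each pair) and control cells (grey); short lines are the fitted values and points, drawn for the 10 genes, the ratio within each pool. The fitted values of the 10 genes lie between -3.04 and 2.40, and those of Cxcr4 near -1.1.

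Reln was low in every light zone library. It had 1.67, 8.31, 16.1 and 12.98 CPM in LZ cKO libraries of sort days 1 to 4, and 2.34, 5.02, 6.92 and 10.6 CPM in LZ control libraries. Its dark zone levels were 52.0, 64.8, 85.2 and 62.8 CPM in cKO and 27.1, 53.0, 60.8 and 64.2 CPM in control libraries. The lowest library of each of the 4 groups was that of day 1. The LZ library of the cKO pool of day 1 had 46 Reln counts, and in that pool the dark zone level was 31.2 times the light zone level, against 4.84 to 7.80 times in the other 3 cKO pools and 6.05 to 11.6 times in the control pools.

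Rgcc, the cell cycle regulator, had 12.3, 14.6, 19.9 and 31.8 CPM in LZ cKO and 11.3, 15.2, 14.1 and 19.6 CPM in LZ control libraries of days 1 to 4. Dark zone libraries held 50.4, 62.1, 89.4 and 94.8 CPM in cKO and 83.6, 72.4, 82.6 and 92.8 CPM in control libraries. Day 4 held the highest library of all 4 groups. The dark zone exceeded the light zone 2.98 to 4.49 times in the 4 cKO pools and 4.73 to 7.37 times in the 4 control pools. The genotype difference in this ratio was tested as the interaction given below, and did not pass. That fit did not pair the zones of a pool and used the zone levels that chose the genes. It therefore does not settle whether the ratio differed between the genotypes.

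Scn8a, Tifa and Mnd1 showed no separation by genotype. Scn8a, the sodium channel gene, averaged 4.38 ± 0.95 CPM in LZ cKO and 3.47 ± 1.65 CPM in LZ control libraries, and 20.2 ± 2.72 CPM in DZ cKO and 18.7 ± 2.77 CPM in DZ control libraries (SD, n = 4 each). Tifa, the TRAF adaptor, ranged from 10.6 to 19.98 CPM in LZ cKO and from 8.26 to 16.6 CPM in LZ control libraries, and from 49.8 to 63.1 CPM in DZ cKO and from 51.9 to 76.3 CPM in DZ control libraries. Mnd1, the meiotic gene, ranged from 1.47 to 5.94 CPM in LZ cKO and from 2.74 to 3.94 CPM in LZ control libraries, and from 12.1 to 18.7 CPM in DZ cKO and from 12.1 to 19.1 CPM in DZ control libraries. For all 3 the ranges of the genotypes overlapped within each zone, while the zones stood clear of each other.

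Selenop, the selenium carrier gene, kept a nearly even zone ratio from pool to pool. Its levels were 93.8, 108, 103 and 148 CPM in LZ cKO and 60.8, 68.5, 75.3 and 86.1 CPM in LZ control libraries. Dark zone libraries were at 367, 439, 404 and 505 CPM in cKO and 298, 253, 289 and 344 CPM in control libraries. The dark zone exceeded the light zone 3.40 to 4.04 times in the cKO pools and 3.69 to 4.90 times in the control pools. The order of the groups was DZ cKO, DZ control, LZ cKO and LZ control, and no neighbours in that order overlapped.

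Lgr5, the R-spondin receptor gene, had 4.31, 5.88, 7.46 and 7.97 CPM in LZ cKO and 9.10, 7.48, 10.7 and 11.1 CPM in LZ control libraries. Its dark zone levels were 32.4, 34.6, 41.5 and 28.2 CPM in cKO and 30.1, 47.4, 37.4 and 40.2 CPM in control libraries. The light zone values of the genotypes overlapped in the range of 7.48 to 7.97 CPM, and within each sort day the cKO library was the lower one.

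Lifr, the cytokine receptor gene, was highest in the light zone of cKO mice. It had 19.1, 32.1, 23.5 and 23.0 CPM in LZ cKO and 6.88, 15.1, 9.27 and 10.2 CPM in LZ control libraries. Levels in the dark zone were 5.29, 5.33, 5.62 and 2.74 CPM in cKO and 3.54, 2.52, 0.69 and 1.58 CPM in control libraries. The lowest dark zone control library held 21 Lifr counts. The cKO values lay above all control values in the light zone, and in the dark zone the day 4 cKO library fell within the control range.

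Serpinb1a, the protease inhibitor gene, had 156, 197, 98.9 and 103 CPM in LZ cKO and 146, 143, 106 and 95.7 CPM in LZ control libraries. Dark zone levels were 21.8, 46.6, 23.9 and 12.5 CPM in cKO and 20.6, 35.9, 34.2 and 13.2 CPM in control libraries. The values of the genotypes overlapped in both zones, and day 2 was the highest day of the dark zone in both genotypes. The close copies Serpinb1b and Serpinb1c averaged 1.37 and 1.12 CPM over the 16 libraries. Reads that fit several copies may have been left out of the gene counts or assigned to either.

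Lrrc32, the GARP gene, had 36.3, 50.4, 33.2 and 39.1 CPM in LZ cKO and 64.0, 53.6, 53.2 and 67.7 CPM in LZ control libraries. Lrrc32 was lower in the dark zone, at 8.01, 13.9, 4.91 and 8.66 CPM in cKO and 20.5, 12.6, 21.0 and 19.1 CPM in control libraries. In the light zone every cKO value was below every control value. The dark zone cKO library of day 2 was the only one above its control partner. Regulatory T cells and platelets are the cells best known for GARP. Foxp3, the defining factor of regulatory T cells, lay between 0 and 2.44 CPM, and of the platelet list Treml1 had no counts in any of the 16 libraries, while Itgb3 had 14.9 to 84.9 CPM. The platelet gene Itga2b was called in the light zone, with a mean of 1.25 CPM in LZ cKO and 0.0249 CPM in LZ control libraries. The T cell marker list as a whole, 13 genes, summed to between 169 and 457 CPM in LZ cKO, 289 and 490 in LZ control, 96.4 and 237 in DZ cKO and 121 and 245 CPM in DZ control libraries, and the list of 8 platelet genes to between 18.04 and 36.1, 15.4 and 23.5, 33.8 and 47.3, and 47.3 and 85.7 CPM in the same 4 groups. Within the T cell list the largest marker, Lck, averaged 153 CPM in LZ cKO and 226 CPM in LZ control libraries. Cd3e averaged 32.6 CPM in LZ cKO and 22.4 CPM in LZ control libraries. By group mean, Lck, Ctla4 and Il2ra were lower in cKO in both zones, and the other T cell markers were higher. No T cell marker was called in either zone. The part of either list in the level of Lrrc32 was not tested.

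The first comparison asks whether the loss of PTBP1 changed the genes in the light zone, where selection takes place. None of the 10 genes passed the test there: 0 of 10 were called by edgeR's quasi-likelihood test at a Benjamini-Hochberg adjusted p under 0.05, against 1.08% of all genes tested. An unadjusted p under 0.05 was found for 4 of the 10, against 13.4% of all genes. The median log2 fold change of the 10 genes was 0.26, against 0.02 over all genes tested. The light zone libraries also entered the choice of the genes, so nothing is read from this median. The cKO and control libraries did not overlap for 2 genes that were higher in cKO cells, Selenop and Lifr (4.53% of all genes), and for 1 that was lower, Lrrc32 (4.12% of all genes).

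Selenop came nearest to the threshold. It averaged 113 ± 24.1 CPM in LZ cKO and 72.6 ± 10.7 CPM in LZ control cells (SD, n = 4 each), and was higher in cKO on 4 of 4 sort days by 0.45 to 0.78 on the log2(CPM + 1) scale. The fitted log2 fold change was 0.64 ± 0.15 (SE), with an edgeR adjusted p of 0.0526. With the sort day as a block, which pairs the cKO and control pools sorted together, it was 0.63 with an edgeR adjusted p of 0.00166, and 5.5% of all genes passed in that fit. DESeq2, which called 3.57% of all genes, gave an adjusted p of 0.00194 for Selenop. In edgeR it also passed with upper-quartile scaling (adjusted p = 0.0393, 1.14% of all genes called), with DESeq2 size factors (0.0497, 1.06% called), with a minimum count of 50 (0.036, 1.78% called) and without the LZ cKO library of day 1 (0.0469). With the block and DESeq2 these are 6 of 30 alternatives, and Selenop did not pass in the other 24, among them no filter (edgeR adjusted p = 0.0725), the light zone libraries alone (0.126) and each sort day left out (0.098 to 0.254). The log2 fold change was 0.65 in the male pools alone (edgeR adjusted p = 0.301) and 0.63 in the female pools alone (edgeR adjusted p = 0.43).

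Lifr averaged 24.4 ± 5.47 CPM in LZ cKO and 10.4 ± 3.43 CPM in LZ control cells, a ratio of 2.36. It was higher in cKO on 4 of 4 days, with a log2 fold change of 1.24 ± 0.38 and an edgeR adjusted p of 0.139. The block moved the edgeR adjusted p to 0.0563, and DESeq2 gave 0.0264. The log2 fold change was 1.23 in the male pools (edgeR adjusted p = 0.467) and 1.25 in the female pools (edgeR adjusted p = 0.445). Lrrc32 averaged 39.7 ± 7.48 CPM in LZ cKO and 59.6 ± 7.35 CPM in LZ control cells, lower in cKO on 4 of 4 days, with a log2 fold change of -0.59 ± 0.24 (edgeR adjusted p = 0.304). Lgr5 averaged 6.41 ± 1.65 CPM in LZ cKO and 9.60 ± 1.66 CPM in LZ control cells, also lower on 4 of 4 days, with a log2 fold change of -0.58 ± 0.20 (edgeR adjusted p = 0.198).

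The other 6 genes differed by less than the spread between the libraries. Reln had a log2 fold change of 0.65 ± 0.51, Rgcc of 0.39 ± 0.27, Scn8a of 0.34 ± 0.26, Tifa of 0.19 ± 0.21, Mnd1 of 0.06 ± 0.31 and Serpinb1a of 0.17 ± 0.36 in the light zone. Their edgeR adjusted p-values lay between 0.603 and 0.969. On the scale of this test, the common coefficient of variation between libraries of a group was 40.3%, which limits what 4 libraries against 4 can show.

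In the dark zone, where the cells divide, the question was whether the same loss changed the genes. Again 0 of 10 passed edgeR's adjusted threshold, against 0.627% of all genes tested, and 3 of the 10 had an unadjusted p under 0.05, against 11.4% of all genes. The median log2 fold change was 0.03 over the 10 genes and 0.01 over all genes tested. Libraries of the genotypes did not overlap for 1 gene that was higher in cKO cells, Selenop (3.25% of all genes), and for 0 that were lower (3.13% of all genes).

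Selenop averaged 429 ± 58.8 CPM in DZ cKO and 296 ± 37.7 CPM in DZ control cells, higher in cKO on 4 of 4 days, with a log2 fold change of 0.53 ± 0.15 (edgeR adjusted p = 0.129). With the sort day as a block it was 0.53 with an edgeR adjusted p of 0.00504, in a fit that called 3.27% of all genes, and DESeq2, which called 2.74%, gave 0.0214. Lifr averaged 4.74 ± 1.35 CPM in DZ cKO and 2.08 ± 1.22 CPM in DZ control cells, higher in cKO on 4 of 4 days, with a log2 fold change of 1.19 ± 0.39 (edgeR adjusted p = 0.202). The dark zone log2 fold change of Lifr was 0.81 in male pools and 1.87 in female pools, and that of Selenop was 0.55 in male pools and 0.52 in female pools, with edgeR adjusted p-values of 0.332 to 0.737.

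Lrrc32 averaged 8.88 ± 3.75 CPM in DZ cKO and 18.3 ± 3.9 CPM in DZ control cells. It was lower in cKO on 3 of 4 days, with a log2 fold change of -1.04 ± 0.25 (edgeR adjusted p = 0.0785). The block gave -1.10 with an edgeR adjusted p of 0.0365, and DESeq2 an adjusted p of 0.00442. The call depended on the fit and on day 2. Without the libraries of that day the log2 fold change was -1.50 with an edgeR adjusted p of 0.00692. Without the DZ cKO library of day 2 alone the edgeR adjusted p was 0.0144. Lrrc32 passed in 4 of 30 alternatives, those given here. The log2 fold change was -0.59 in male pools and -1.56 in female pools (edgeR adjusted p = 0.751 and 0.206). The remaining 7 genes had log2 fold changes between -0.18 (Lgr5) and 0.37 (Reln) and edgeR adjusted p-values of 0.818 to 0.994.

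**Figure D3:**
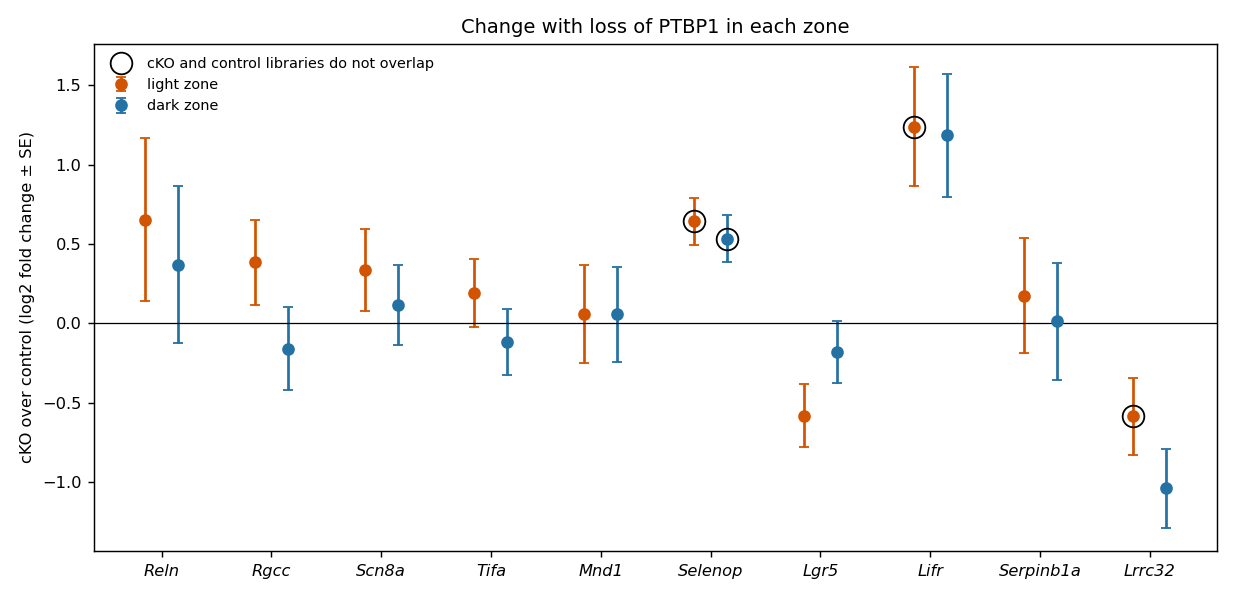
Log2 fold change of cKO over control with its SE from the edgeR fit, for each of the 10 genes in the light zone (orange, left of each pair) and the dark zone (blue). Circles mark genes whose 4 cKO libraries did not overlap the 4 control libraries: Selenop in both zones, and Lifr and Lrrc32 in the light zone.

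Whether the change with PTBP1 loss differed between the zones was tested as an interaction. By edgeR 0 of 10 genes passed, as did 0% of all genes tested, and 0 of 10 had an unadjusted p under 0.05, against 2.95% of all genes. DESeq2 also called 0 of the 10, and 4 of all genes. The light minus dark zone difference in the log2 fold change lay between -0.40 (Lgr5) and 0.55 (Rgcc), all with an edgeR adjusted p of 1.0. For Selenop it was 0.11 ± 0.21, for Lifr 0.05 ± 0.55 and for Lrrc32 0.46 ± 0.35, and for Rgcc, whose pools were described above, 0.55 ± 0.37. This comparison uses the same zone levels that chose the genes, and its fit did not pair the LZ and DZ libraries of a pool.

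Marker lists of other cells are given beside the genotype differences. The sum of the 12 macrophage markers had a median of 206 CPM in LZ cKO and 59.1 CPM in LZ control libraries, and of 498 CPM in DZ cKO and 38.8 CPM in DZ control libraries, with overlapping ranges. No marker of that list was called in either zone, and its member Timd4 had no counts in 10 of the 16 libraries. With the logarithm of this sum as a term in the fit, an alternative chosen after the data were seen, Selenop had a light zone log2 fold change of 0.66 (edgeR adjusted p = 0.0756; 0.906% of all genes called) and a dark zone log2 fold change of 0.57 (edgeR adjusted p = 0.251; 0.431% called). The sum of 7 dendritic cell markers, mostly Flt3, had a median of 143 CPM in LZ cKO and 65.4 CPM in LZ control libraries. The dark zone medians of this sum were 95.2 CPM in cKO and 63.5 CPM in control libraries. The dendritic cell marker Flt3 was called in the light zone, with means of 125 CPM in LZ cKO and 56.7 CPM in LZ control libraries. Xcr1 of the same list averaged 0.849 CPM in LZ cKO and 0.996 CPM in LZ control libraries. The 7 plasma cell markers had a median sum of 5764 CPM in DZ cKO and 2853 CPM in DZ control libraries. The ranges overlapped, at 2308 to 10845 CPM in DZ cKO and 2624 to 7699 CPM in DZ control libraries. In the light zone the plasma cell medians were 1883 CPM in cKO and 1725 CPM in control libraries. The 10 neutrophil markers had a median sum of 42.4 CPM in LZ cKO and 7.29 CPM in LZ control libraries. Their dark zone medians were 48.5 CPM in cKO and 11.7 CPM in control libraries. The neutrophil ranges of the genotypes overlapped in both zones, in the light zone at 23.5 to 58.6 CPM in cKO and 0 to 69.2 CPM in control libraries. The 12 endothelial and stromal markers, mostly Pecam1, summed to 126 to 177 CPM in LZ cKO and 112 to 120.3 CPM in LZ control libraries, and to 60.2 to 97.2 CPM in DZ cKO and 65.5 to 76.1 CPM in DZ control libraries. The part of the dendritic, plasma, neutrophil, endothelial and stromal lists in the results was not tested.

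**Figure D4:**
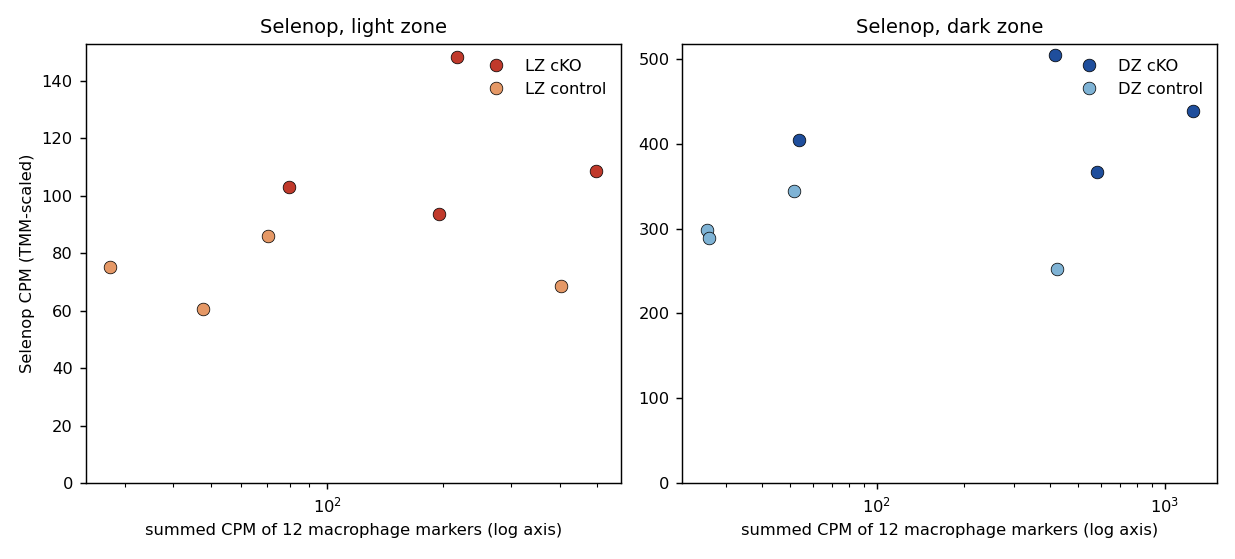
Selenop level (CPM, linear axis) against the summed CPM of 12 macrophage markers (log axis) in each library of the light zone (left) and the dark zone (right). In the dark zone the 4 cKO points lie between 367 and 505 CPM at sums from 53.6 to 1252 CPM, above the 4 control points at 253 to 344 CPM.

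Genes that work with the 10 were followed in 10 lists holding 155 genes, of which 123 were tested. The lists were chosen with earlier results of these data known. In the light zone 1 of the 123 was called, higher in cKO cells (0.69% of all genes were called higher), and 0 were called lower. A count this near the share of all genes is not a result about the partners. None of the 123 was called in the dark zone. The median log2 fold change of the tested partners was 0.04 in the light zone, against 0.02 over all genes, and 0.07 in the dark zone, against 0.01 over all genes. The gene called was Clcf1, which encodes a cytokine that signals through a receptor complex of CNTFR, gp130 and LIFR.

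Clcf1 had 146, 118, 54.0 and 86.6 CPM in LZ cKO and 47.0, 40.4, 22.8 and 24.4 CPM in LZ control libraries of days 1 to 4. Its dark zone values were 60.7, 49.4, 20.5 and 33.4 CPM in cKO and 20.4, 15.97, 12.9 and 13.5 CPM in control libraries. The genotypes did not overlap in the light zone (4.53% of all genes were higher without overlap) or the dark zone (3.25%). In the dark zone the lowest cKO library, at 20.52 CPM, was barely above the highest control library, at 20.41 CPM. Clcf1 rose by 1.59 ± 0.35 log2 units in LZ cKO cells (edgeR adjusted p = 0.0403). Its log2 fold change in the dark zone was 1.39 ± 0.35 (edgeR adjusted p = 0.0897). The block by sort day gave an edgeR adjusted p of 6.68e-05 for LZ cells and of 0.000521 for DZ cells. The light zone call held in 10 of 30 alternative fits, with edgeR or DESeq2 adjusted p-values from 6.68e-05 to 0.302. With the macrophage marker sum in the fit, the log2 fold change of Clcf1 was 1.33 for LZ cells (edgeR adjusted p = 0.0879) and 0.86 for DZ cells (edgeR adjusted p = 0.493), so the light zone call was lost.

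Of the other genes of this pathway, Il6st, the gp130 gene, averaged 12.7 CPM over the 16 libraries. The receptor genes Cntfr and Osmr and the ligand gene Lif had no counts in any library, where 3 counts would be 0.0876 to 0.112 CPM. The kinase gene Jak1 and the transcription factor gene Stat3, which act below gp130, had log2 fold changes of 0.14 and -0.04 in the light zone (edgeR adjusted p = 0.714 and 0.939). For reelin, the receptor gene Vldlr and the adaptor gene Dab1 had no counts either, and the receptor gene Lrp8 averaged 4.49 CPM in LZ cKO, 6.51 in LZ control, 6.10 in DZ cKO and 6.92 CPM in DZ control cells. The kinase gene Fyn, also of the reelin pathway, had log2 fold changes of 0.30 in LZ and 0.49 in DZ cells (edgeR adjusted p = 0.272 and 0.0818), and the integrin gene Itgb1 of -0.07 and 0.09 (edgeR adjusted p = 0.929 and 0.913).

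None of the other lists held a called gene in either zone. Of the sodium channel list, 6 of 16 genes were tested. The channel genes Scn4a and Scn11a had log2 fold changes of 0.72 and 1.92 in the light zone (edgeR adjusted p = 0.198 and 0.224). Scn11a averaged 2.07 CPM in LZ cKO and 0.55 CPM in LZ control cells, and 14.0 CPM in DZ cKO and 7.42 CPM in DZ control cells, so it shared the direction of the zone difference of Scn8a. Scn4a averaged 30.8 and 18.7 CPM in LZ cKO and LZ control cells and 29.4 and 22.9 CPM in DZ cKO and DZ control cells.

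Rad54l, of the list of DNA strand exchange around Mnd1, had a log2 fold change of -0.57 in the light zone (edgeR adjusted p = 0.159). The meiotic genes Dmc1 and Sycp3 averaged 0.30 and 0.01 CPM over the 16 libraries, beside 22.0 CPM of Psmc3ip, the binding partner of Mnd1. Of the selenoprotein list, Gpx1, a glutathione peroxidase, had log2 fold changes of -0.11 in LZ and -0.0048 in DZ cells (edgeR adjusted p = 0.697 and 0.994), and Selenof of -0.0048 and 0.23 (edgeR adjusted p = 0.993 and 0.367). The cell cycle genes Cdc20 and Ccnb2, listed around Rgcc, were lower in the light than in the dark zone by log2 ratios of -1.10 and -1.30 in cKO and of -1.08 and -1.20 in control cells, and their log2 fold changes with genotype lay between -0.10 and 0.01.

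In the list around Tifa, Ikbkb, a kinase gene of the NF-kB pathway, had a log2 fold change of 0.34 in the light zone (edgeR adjusted p = 0.201), and Rela, an NF-kB subunit gene, of -0.17 (edgeR adjusted p = 0.48). Around Lgr5, the beta-catenin gene Ctnnb1 had log2 fold changes of -0.02 and 0.03 in the light and dark zone (edgeR adjusted p = 0.979 and 0.962) and the Wnt effector gene Tcf7 of 0.54 and 0.87 (edgeR adjusted p = 0.823 and 0.72). Serpinb6b, a relative of Serpinb1a, averaged 68.7 CPM in LZ cKO and 44.9 CPM in LZ control cells and 28.2 CPM in DZ cKO and 17.7 CPM in DZ control cells. The log2 fold change of Serpinb6b was 0.61 in LZ cells (edgeR adjusted p = 0.0595) and 0.68 in DZ cells (edgeR adjusted p = 0.0559), and those of Serpinb6a were 0.18 and -0.04 (edgeR adjusted p = 0.784 and 0.971). In the TGF-beta list around Lrrc32, the receptor gene Tgfbr2 and the ligand gene Tgfb1 had log2 fold changes of 0.31 and 0.07 in the light zone (edgeR adjusted p = 0.488 and 0.827).

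Sex of the mice was compared over the 8 pools, with the LZ and DZ counts of a pool added up and the genotype in the fit. Females were sorted on days 3 and 4 and males on days 1 and 2, so sex and sort day cannot be told apart. Of the 10 genes, 0 passed edgeR's adjusted threshold, against 1.79% of the 16067 genes tested, and 3 had an unadjusted p under 0.05, against 20.7% of all genes. Female and male pools did not overlap for Rgcc, which was higher in females (4.94% of all genes), and for Serpinb1a, which was lower in females (4.95% of all genes).

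Serpinb1a had 62.6 and 62.2 CPM in the female cKO pools, 70.0 and 53.8 CPM in the female control pools, 83.0 and 123 CPM in the male cKO pools and 83.7 and 87.7 CPM in the male control pools. All 4 female pools lay below all 4 male pools. The female minus male log2 fold change was -0.60 ± 0.14, with an edgeR adjusted p of 0.0682. It was called in the light zone libraries alone (-0.65, edgeR adjusted p = 0.0114) and by DESeq2 (-0.60, adjusted p = 0.000819), which called 10.6% of all genes in this comparison. In the dark zone libraries alone it was -0.59 (edgeR adjusted p = 0.613).

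Rgcc had 53.2 and 60.4 CPM in the female cKO pools, 48.7 and 57.5 CPM in the female control pools, 32.9 and 37.7 CPM in the male cKO pools and 47.1 and 45 CPM in the male control pools. The log2 fold change was 0.45 ± 0.12 (edgeR adjusted p = 0.0932), and DESeq2 gave an adjusted p of 0.00745. Reln averaged 39.3 ± 6.81 CPM in female and 27.3 ± 9.02 CPM in male pools (SD, n = 4 each), with a log2 fold change of 0.55 ± 0.22 (edgeR adjusted p = 0.215). For the other 7 genes the log2 fold changes lay between -0.22 (Lifr) and 0.18 (Selenop), with edgeR adjusted p-values of 0.313 to 0.998.

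By single sort day, Reln was lowest on day 1 in all 4 groups, 1 of the 10 genes, while 9.2% of all genes had the same lowest day in all 4 groups. Rgcc and Selenop, 2 of the 10, were highest on day 4 in all 4 groups, while 10.1% of all genes had the same highest day. Counts this near those of all genes are not a result about the 10. After the group means were removed, Rgcc and Selenop varied together over the 16 libraries (Pearson r = 0.83, on log2(CPM + 1)), as did Reln and Lgr5 (r = 0.78), and Mnd1 and Serpinb1a varied in opposite directions (r = -0.62). These values describe libraries that share pools and sort days.

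**Figure D5:**
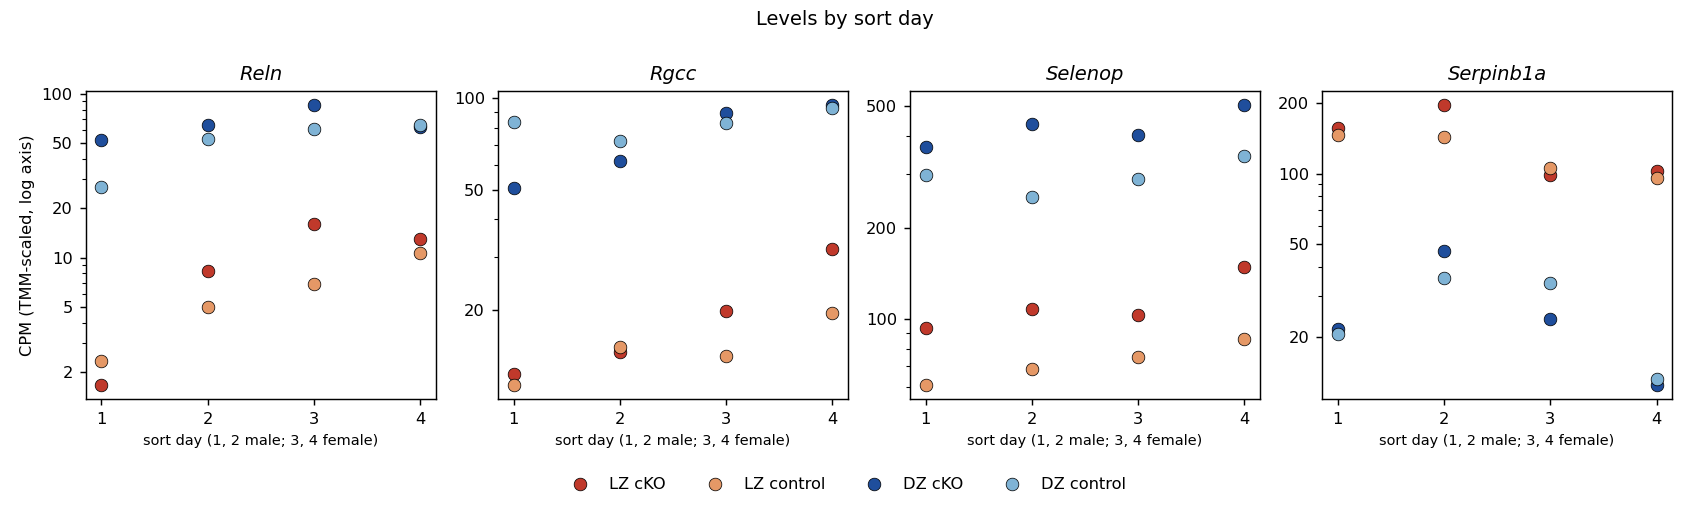
Levels of Reln, Rgcc, Selenop and Serpinb1a (CPM, log axis) by sort day in the 4 groups; days 1 and 2 are male and days 3 and 4 female pools. Day 1 holds the lowest Reln value and day 4 the highest Rgcc and Selenop value of each group.

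The genes most like each of the 10 over all 16 libraries were ranked by Pearson's r of log2(CPM + 1), as a description that mostly follows the shared zone difference. Selenop went with Ptgr1 (r = 0.996) and Dap (0.983), Serpinb1a with Ccr6 (0.987) and Hhex (0.985), and Lgr5 with Txndc11 (0.982). Reln went with Gpd1l (0.972), Mnd1 with Msh3 (0.964), Lrrc32 with Vasp (0.974) and Lifr with St3gal5 (0.945). Anxa2 was the gene most like Rgcc (0.973) and Tifa (0.968), and the next after Chp1 for Scn8a (0.960 for Anxa2). Once group means were removed, the closest were Becn1 for Selenop (0.958), Snn for Serpinb1a (0.960) and Mapk7 for Mnd1 (0.864). Next came Ptgr1 for Selenop (0.941), Ccr6 for Serpinb1a (0.942) and H1fx for Mnd1 (0.861), which also ranked among the closest before. For the other genes of the 10, the closest genes before and after this step were not the same.

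PTBP1 binding was mapped by iCLIP, which recovers the nucleotides at which a protein was crosslinked to RNA, in splenic B cells cultured for 48 h with lipopolysaccharide, a B cell mitogen. These were not germinal centre cells, and the level of the 10 genes in them is not known. The authors' pooled list held 244659 sites over 5 replicates. Sites lay inside 3 of the 10 genes (30%), against 45.2% of the 14335 tested genes with a RefSeq span. Long genes held sites more often: the share was 27.7% of genes under 20 kb, 62.7% from 20 to 100 kb and 71.7% over 100 kb.

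Reln, which spans 460 kb at chr5:21884454-22344705 (GRCm38), held 3 sites within 4 bases, at positions 22181611, 22181613 and 22181614 of chromosome 5 on the minus strand, the strand of the gene. Their cDNA counts were 1, 2 and 1, and 2 of the 3 were also in 1 replicate list. Lgr5, at chr10:115450314-115587780, held sites at 115473380 and 115580264 on the minus strand with a cDNA count of 3 each, of which the second was in 1 replicate list. Lrrc32, at chr7:98489305-98501831, held sites at 98499893 and 98499894 on the plus strand with a cDNA count of 1 each, in no replicate list. The strand of Lgr5 and Lrrc32 is not given in the annotation used, which also gives no exons, so none of these sites is assigned to an exon or intron.

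No site of the pooled list fell in Rgcc (chr14:79288750-79301635), Scn8a (chr15:100869863-101045938), Tifa (chr3:127788875-127798394), Mnd1 (chr3:84087933-84155798), Selenop (chr15:3270767-3280510), Lifr (chr15:7090610-7197489) or Serpinb1a (chr13:32842092-32853206). A gene that the cultured cells do not express could not show a site. Of the genes inside or across the 10, Ccdc152, which overlaps Selenop, reached 0.611 CPM at most. A930009A15Rik, which overlaps Lgr5, had no counts. No level was available for Gm52176, which overlaps Scn8a. The effect of such overlaps on the counts of the 10 was not tested.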

How the data were processed

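RNA was measured in 16 libraries of sorted germinal centre B cells, and PTBP1 sites in 5 iCLIP libraries of cultured B cells. The deposited RNA values are raw, whole-number counts for each Ensembl identifier. The submitters' processing notes list Trim Galore 0.4.2, HISAT2, HTSeq and GRCm38. No strand setting or annotation release is named in the labels, so overlapping and antisense genes are uncertain. Per the labels' protocols, cDNA was made from 2 ng of RNA with a low-input kit and amplified in 8 PCR cycles, without molecular identifiers, so counts are not independent molecules. Summary lines that name no gene (5 in each file) held 41.4% to 49.8% of entries and were left out. The deposited score of an iCLIP site is a signed cDNA count whose sign gives the strand; per the file headers, the authors called sites on single replicates and on their sum, at a false discovery rate under 0.05, and the notes name Bowtie.

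Symbols were found for 47224 of 47729 identifiers. All 16 libraries were fitted together by edgeR 4.0.16 under R 4.3.3, with TMM, robust quasi-likelihood tests (two-sided) and filterByExpr at a minimum count of 10; p-values were adjusted by Benjamini-Hochberg over all genes tested and called at 0.05. The steps were tested on simulated data. Sex was tested on 8 summed pools. Alternatives were DESeq2 1.42.0, other scalings and filters, the sort day as a block, days or libraries left out, and 1 sex alone; the macrophage marker sum as a covariate was added after the data were seen. Changes are log2 fold changes ± SE. Libraries of 1 group differed beyond sampling noise (chi-square per degree of freedom 23.8 to 183), so each was 1 replicate.

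Replicate numbers equal the sort days in the labels, and both zones of a number and genotype share a pool, which pairs libraries of 1 number. Deviations of same-numbered libraries from their group means correlated at 0.141 to 0.499. Members, partner lists and marker lists were chosen with earlier results of these data known. All 10 members are described in each comparison. Of each partner list, called genes or otherwise the 2 with the highest mean CPM are named, except 1 that is not reported here, and any further partner was named after its values were seen. Sequences and gene spans are from RefSeq (GRCm38.p6); a genome sequence and exon lengths were not used here.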

Additional observations from a re-analysis of the deposited data

Results flagged for a closer look

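Among 40 sets of 4 libraries (10 genes in 4 groups), 2 libraries stood far from the other 3 of their group, with a gap to the nearest one above Dixon's 95% critical value for 4 samples. Chance alone marks about 1 in 20 such sets. Scn8a was at 22.8 CPM in the DZ control library of day 4, against 17.0 to 17.8 CPM in the other 3. Lifr was at 2.74 CPM in the DZ cKO library of day 4, against 5.29 to 5.62 CPM in the other 3. Without that library the log2 fold change of Lifr in the dark zone stayed above 0 and did not pass the edgeR threshold. No cause of either value was tested.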

How the results depend on the processing

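The zone direction held for all 10 genes in both genotypes under the 8 alternatives run, and none of the 160 values moved by more than the SD between pools. The genes were picked for large zone differences in these libraries, which favours this outcome, so it is only a description. With PTBP1 loss in the light zone, 0 genes were called; 1 was called (Selenop) with upper-quartile scaling, DESeq2 size factors, a minimum count of 50 and the replicate block, and 2 by DESeq2 (Selenop, Lifr); leaving out replicates gave 0 to 1. In the dark zone the count was 2 with the block and 2 by DESeq2 (Selenop, Lrrc32), and 0 to 1 with replicates left out. For sex it was 1 in LZ libraries only and 2 by DESeq2. The block changed no other call among the 10 genes. Of 3 genes with iCLIP sites, 1 had a site with a cDNA count of at least 3, and 0 had a site found in 2 or more replicate lists. Clcf1 kept its call in 10 of 30 alternatives in the light zone and gained one in 3 of 30 in the dark zone. Among all genes, edgeR called 171 in the light and 99 in the dark zone, against 868 and 517 with the block, 564 and 432 by DESeq2, 102 and 73 with no filter, 98 and 52 with the libraries of that zone only, 3 and 2 in males only and 9 and 4 in females only. For sex the count was 287, against 858 in LZ libraries only, 8 in DZ libraries only and 1710 by DESeq2.

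Signs turned for genes near 0, none of which was called, and the causes were not tested. In the light zone Scn8a was -0.21 and Tifa -0.11 in females only, Mnd1 -0.020 with the block and -0.50 in males only, and Serpinb1a -0.050 with the macrophage sum and -0.0076 in females only; with replicates left out, Tifa ran from -0.094 to 0.48, Mnd1 from -0.32 to 0.33 and Serpinb1a from -0.041 to 0.31. In the dark zone Rgcc was 0.072 in females only, Mnd1 -0.12 in males only, and Serpinb1a -0.0074 with upper-quartile scaling, -0.042 with the block, -0.37 with the macrophage sum and -0.38 in females only; leaving out replicates, Tifa ran from -0.24 to 0.057, Mnd1 from -0.072 to 0.18 and Serpinb1a from -0.42 to 0.24. For the interaction, Reln was -0.085 in males only, Scn8a -0.36 and Lifr -0.63 in females only, and Mnd1 -0.0025 with DESeq2 size factors, -0.0012 with no filter, -0.049 with the block, -0.14 with the macrophage sum, -0.38 in males only and -0.0025 by DESeq2; leaving out replicates, Reln ran from -0.057 to 0.68, Scn8a from -0.097 to 0.65, Mnd1 from -0.37 to 0.26, Selenop from -0.047 to 0.21, Lifr from -0.33 to 0.39 and Serpinb1a from -0.064 to 0.60. For sex, Tifa was 0.037 in DZ libraries only and Mnd1 0.011 with no filter and 0.68 in LZ libraries only; leaving out pools, Tifa ran from -0.23 to 0.050, Mnd1 from -0.17 to 0.13, Lgr5 from -0.026 to 0.18 and Lrrc32 from -0.18 to 0.10.

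Depth sets no limit on Selenop, with at least 1977 counts per library, but Lifr fell to 21 and Reln to 46 counts in single libraries. With 4 libraries a group, a change that missed the threshold is not shown to be absent. p-values over pools measure the spread between pools of mice, which share sort days.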
